A study of Homo sapiens with 3 samples.

Results

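Transcript signals of the mitochondrial ribosomal proteins were examined in C33A cells, a line established from a human cervical carcinoma. The members were all genes whose symbol on the array is MRPL or MRPS followed by a number, with or without a letter A to C. A symbol of this form stood on probe sets for 77 genes, of which 73 had a probe set of their own and were measured, out of 18395 genes measured in all. The other 4 genes, MRPS24, MRPL51, MRPS28 and MRPS6, lay only on probe sets that also carry the symbol of another gene. The series held 1 group of 3 Affymetrix Human Gene 1.0 ST arrays, each hybridized with total RNA of 1 independent, untreated, exponentially growing culture. Cells were grown in DMEM with 7% fetal bovine serum, penicillin and streptomycin, and no genotype, treatment or time differed between the arrays. With 1 condition there was no contrast to test, and the values below are levels, their spread between the 3 cultures (SD) and counts read against the other genes. Where medians of different sets of genes are compared, the SD is over the arrays and does not measure the spread between genes. The study asked how binding of CHD8, a chromatin remodeller of the CHD family, at promoters goes with the level of the transcripts, and its list of CHD8 target promoters was used here to divide the members. The list holds promoters that the study found enriched for CHD8 in both of its binding experiments on promoter arrays in C33A cells. A member outside the list is therefore not shown to be unbound.

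Mitochondria have a ribosome of their own, which makes the few proteins encoded by mitochondrial DNA, all of them subunits of the respiratory chain and the ATP synthase. Its RNAs come from mitochondrial DNA, whereas every protein of its large and small subunits is encoded in the nucleus, made in the cytosol and imported. Many of these proteins have a counterpart in the bacterial ribosome, and others are found only in the mitochondrial ribosome.

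The promoters of some members are shown first, because the target list is a list of promoters and because the ETS and YY1 motifs were found in a larger share of member promoters than of others. Given are the 250 bases before the first RefSeq start of transcription on GRCh38.p14, 5′ to 3′ on the strand of the gene, for the 4 members with the highest signal on the CHD8 target list (MRPL3, MRPS16, MRPL18 and MRPL30) and the 2 with the highest signal outside it (MRPS15 and MRPL45). MRPL36 and MRPL32 were added, after the matches were seen, as members with a YY1 motif before the start. Capitals mark matches, on either strand, to the ETS motif CCGGAAG, the YY1 motif AAGATGGCG, the E2F motifs TTTGGCGC, TTTCGCGC and TTTCCCGC and TATAAA, and the NRF1 palindrome was searched too.
MRPL3: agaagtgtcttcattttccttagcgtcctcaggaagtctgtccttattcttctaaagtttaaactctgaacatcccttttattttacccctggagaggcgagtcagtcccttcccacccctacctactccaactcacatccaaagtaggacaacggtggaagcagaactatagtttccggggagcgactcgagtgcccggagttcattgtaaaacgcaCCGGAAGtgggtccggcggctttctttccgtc
MRPS16: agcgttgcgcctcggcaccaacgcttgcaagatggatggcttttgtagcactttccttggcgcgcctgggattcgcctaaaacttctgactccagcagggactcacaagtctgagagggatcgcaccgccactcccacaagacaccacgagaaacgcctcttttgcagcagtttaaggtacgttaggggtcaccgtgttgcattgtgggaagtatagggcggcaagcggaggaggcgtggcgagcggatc
MRPL18: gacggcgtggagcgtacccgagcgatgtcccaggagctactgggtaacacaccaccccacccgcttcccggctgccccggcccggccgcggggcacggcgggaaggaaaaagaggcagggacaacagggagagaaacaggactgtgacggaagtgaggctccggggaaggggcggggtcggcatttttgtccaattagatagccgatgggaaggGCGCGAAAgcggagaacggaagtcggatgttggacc
MRPL30: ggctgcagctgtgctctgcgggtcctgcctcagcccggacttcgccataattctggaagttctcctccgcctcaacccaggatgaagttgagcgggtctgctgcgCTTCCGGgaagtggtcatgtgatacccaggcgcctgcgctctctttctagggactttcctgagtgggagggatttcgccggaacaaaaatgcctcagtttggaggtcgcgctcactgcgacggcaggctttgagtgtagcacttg
MRPS15: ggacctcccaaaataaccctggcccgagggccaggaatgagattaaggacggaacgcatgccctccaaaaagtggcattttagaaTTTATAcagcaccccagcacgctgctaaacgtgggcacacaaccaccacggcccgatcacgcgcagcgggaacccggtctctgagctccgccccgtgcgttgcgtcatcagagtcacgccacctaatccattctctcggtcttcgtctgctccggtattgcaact
MRPL45: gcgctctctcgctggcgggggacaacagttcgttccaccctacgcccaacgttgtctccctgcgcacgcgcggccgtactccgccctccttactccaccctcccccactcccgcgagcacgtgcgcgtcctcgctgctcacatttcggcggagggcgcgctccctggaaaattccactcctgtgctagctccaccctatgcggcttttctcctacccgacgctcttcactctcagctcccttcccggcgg
MRPL36: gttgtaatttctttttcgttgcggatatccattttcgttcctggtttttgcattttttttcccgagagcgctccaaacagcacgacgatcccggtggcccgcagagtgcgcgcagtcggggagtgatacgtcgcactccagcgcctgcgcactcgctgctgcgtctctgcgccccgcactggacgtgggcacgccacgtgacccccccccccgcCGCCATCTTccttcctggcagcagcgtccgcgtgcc
MRPL32: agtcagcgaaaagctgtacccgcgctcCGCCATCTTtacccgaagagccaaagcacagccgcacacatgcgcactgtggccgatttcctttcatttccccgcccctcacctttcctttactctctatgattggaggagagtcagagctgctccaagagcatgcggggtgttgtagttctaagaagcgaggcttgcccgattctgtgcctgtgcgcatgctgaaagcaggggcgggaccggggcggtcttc
These windows lie at chr3:131502972-131503221 (minus strand) for MRPL3, chr10:73252645-73252894 (minus) for MRPS16, chr6:159789562-159789811 (plus) for MRPL18, chr2:99180934-99181183 (plus) for MRPL30, chr1:36464385-36464634 (minus) for MRPS15, chr17:38296918-38297167 (plus) for MRPL45, chr5:1799838-1800087 (minus) for MRPL36 and chr7:42932126-42932375 (plus) for MRPL32. Counted from the start, the ETS match of MRPL3 began at -32, that of MRPL30 at -145 and that of MRPS16 at 5, past the stretch printed. The E2F match of MRPL18 began at -36, the TATAAA match of MRPS15 at -165, and the YY1 matches of MRPL36 and MRPL32 at -36 and -223. MRPL45 held none of these motifs in its window.

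The mitochondrial ribosomal protein genes were expressed at high levels and were less spread than all genes. The median of the members was 9.32, 9.33 and 9.39 on the 3 arrays (log2 signal, mean 9.35 ± 0.04, SD, n = 3), whereas the median of all genes was 6.92, 6.92 and 6.91. The members' median exceeded that of all other genes by 2.45 ± 0.05 on the log2 scale (SD, n = 3 arrays), and by 2.41, 2.43 and 2.50 on the single arrays. From the lower to the upper quartile the members' means ran from 8.74 to 9.85, which is 1.11 wide, against 3.50 for all genes. This width was not particular to the members. In other lists of mitochondrial gene expression, described below, it ran from 0.55 (aminoacyl-tRNA synthetases) to 1.72 (transcription). Ranked by mean signal, 19 of the 73 members stood in the highest of 10 equal bins of genes, called deciles (26.0% of members, against 9.94% of the 18322 other genes), which began at 9.83. A further 26 stood in the next decile and 15 in the one after it. In the highest of 3 equal classes of genes, which began above 8.14, were 64 members (87.7%, against 33.12% of the other genes). Of the other members, 8 stood in the middle class and 1, MRPL13, in the lowest.

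Since the values carry no detection call, a bound was set at the 95th percentile of 456 genes for olfactory and taste receptors, keratin-associated proteins and beta-defensins, families with little or no expression outside their own tissues (below, silent families). This bound was 6.41, and 71 of 73 members were above it, against 56.4% of the other genes. The 2 below it were MRPL13 and MRPS18C. Probes differ in how well they hybridize, so the order of genes given here is an order of signals and only roughly one of transcript amounts.

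**Figure D1:**
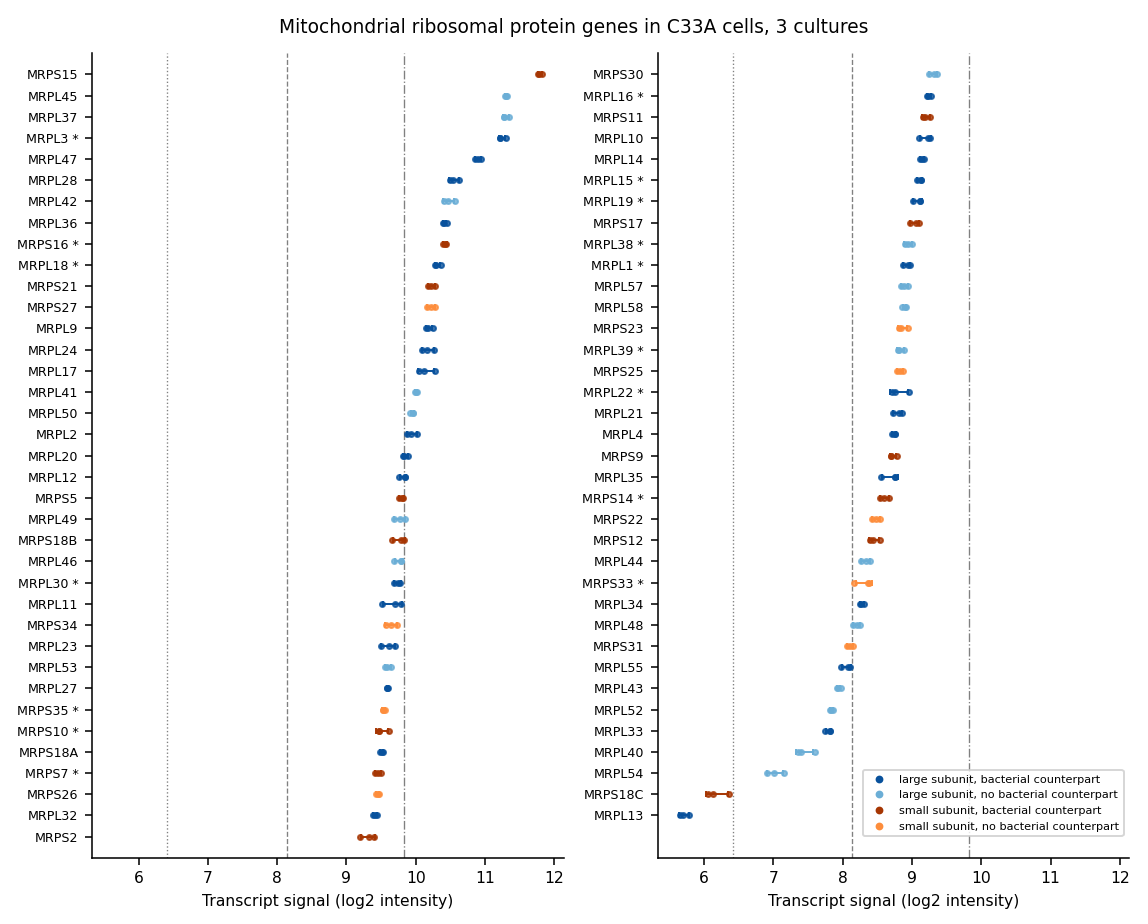
Transcript signal (log2 intensity, x axis) of each of the 73 members on the 3 arrays, in order of their mean, with 1 point per array and a line that reaches 1 SD to either side of the mean. Dotted, dashed and dash-dotted lines mark the bound from silent families (6.41), the start of the highest class (8.14) and the start of the highest decile (9.83), an asterisk marks members on the CHD8 target list, and only MRPL13 and MRPS18C have a mean under the first line.

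Among the members with the highest signals were proteins of both subunits. MRPS15, a small subunit protein that binds the ribosomal RNA, had the highest signal of all members, at 11.82, 11.77 and 11.78 on the 3 arrays (mean 11.79 ± 0.03, SD, n = 3), and ranked 161 among all genes. MRPL45, a mitochondrion-specific protein near the exit of the peptide tunnel, gave 11.29, 11.31 and 11.31. MRPL37, also a mitochondrion-specific protein of the large subunit, gave 11.28, 11.35 and 11.27. These last 2 and MRPL3 could not be ordered, since their means differed by less than the sum of their SDs, while MRPS15 stood above all 3. MRPL3, which in the bacterial ribosome has its counterpart near the peptidyl transferase centre, gave 11.22, 11.22 and 11.30. MRPL47, the counterpart of bacterial L29 at the tunnel exit, followed at 10.95, 10.86 and 10.89. MRPL28, a large subunit protein with a bacterial counterpart, had 10.63, 10.49 and 10.53. All 6 lay in the highest decile.

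The 3 lowest members stood apart from the rest. MRPL13, the counterpart of bacterial L13, gave 5.69, 5.78 and 5.65 (mean 5.71 ± 0.07, SD, n = 3) and ranked 12348 of 18395 genes. MRPS18C, 1 of 3 human proteins related to bacterial S18, gave 6.36, 6.13 and 6.05 (mean 6.18 ± 0.16). MRPL54, a mitochondrion-specific protein of the large subunit, gave 7.15, 7.00 and 6.91. On each of the 3 arrays MRPL13 was below MRPS18C and MRPS18C below MRPL54. The next members up were MRPL40 at 7.45 ± 0.13 and MRPL52 at 7.84 ± 0.02, both mitochondrion-specific proteins of the large subunit, and between them MRPL33 at 7.79 ± 0.04, the counterpart of bacterial L33. Each of these low signals came from 1 probe set, so there was no second reading of the same gene. MRPS18C has 6 pseudogenes in RefSeq and MRPL13 has none. Over the whole order, from 11.79 to 5.71, the gap between neighbours exceeded the sum of their SDs in 15 of 72 pairs, so most neighbours could not be told apart by their spread.

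The 3 paralogues of bacterial S18 differed. MRPS18B, of the small subunit, gave 9.83, 9.66 and 9.78 (mean 9.76 ± 0.09). MRPS18A, which sits in the large subunit, gave 9.53, 9.52 and 9.48 (mean 9.51 ± 0.02). MRPS18C was lower than both by more than 3 log2 units on every array, and MRPS18B was above MRPS18A on each array.

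The large subunit, with 50 members, and the small subunit, with 23, did not differ in level beyond the spread of the arrays when probe sets of 1 symbol were used. MRPS18A and MRPS30, which carry the letter S but lie in the large subunit, were counted there. The difference of the medians, large minus small, was 0.18, -0.02 and -0.00 on the 3 arrays, a mean of 0.05 ± 0.11 (SD, n = 3), and it took the other sign without replicate 1, at -0.01. With probe sets of several symbols also used, which brought in the other 4 genes, it was 0.23 ± 0.07 and exceeded that spread. Both SDs are over arrays that read the same genes. Between genes the spread was far wider, with interquartile ranges of 1.15 in the large and 1.04 in the small subunit. In the highest class were 43 of the 50 large subunit members and 21 of the 23 small subunit members.

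Members with a bacterial counterpart had the higher median signal. The median was 9.45 for the 45 such members and 8.92 for the 28 mitochondrion-specific members, with a difference of 0.61, 0.53 and 0.44 on the 3 arrays (mean 0.52 ± 0.09, SD, n = 3). The SD here is over arrays that read the same genes, not over genes. Both classes spread widely, and their members overlapped over most of the range. Among those of the large subunit, signals ran from MRPL3 down to MRPL13 for members with a counterpart and from MRPL45 down to MRPL54 (11.30 to 7.02) for those without. In the small subunit, members with a counterpart ran from MRPS15 down to MRPS18C. Those without ran from MRPS27, a pentatricopeptide repeat protein, at 10.22 ± 0.06 down to MRPS31 at 8.11 ± 0.04.

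Most members were read by a single probe set, which was so for 70 of the 73. MRPL36, the small counterpart of bacterial L36, had 2, with means of 11.05 and 9.79, so that its mean of 10.42 joined readings more than 1 log2 unit apart. The 3 probe sets of MRPS18B gave identical values, as did the 2 of MRPL20. RefSeq lists pseudogenes for 38 members, 94 in all, with 9 for MRPS21 and 8 for MRPL57. How far transcripts or probes shared with these copies enter the signals was not tested.

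The CHD8 target list held a larger share of the members than of the other genes. On the list were 16 of 73 measured members (21.9%, against 9.59% of the other genes). All 16 stood in the highest class by signal, 3 of them in the highest decile, 7 in the next and 5 in the one after it. Of the other 57 members, 48 stood in the highest class (84.2%). In the highest decile were 16 of them (28.1%), against 18.75% of the listed members. The range of the listed members was 8.30 to 11.25, against 5.71 to 11.79 for the others. Within the members, those on the list did not have the higher signals. Their median was 9.18 against 9.41 for the others, and the difference, listed minus other, was -0.28, -0.20 and -0.21 on the 3 arrays (mean -0.23 ± 0.04, SD, n = 3). Without the 3 members that had several probe sets it was -0.14. Here too the SD is over the arrays and does not measure the spread between genes. Over all genes the same difference was positive, at 2.50 ± 0.03. There the genes outside the list had a median of 6.59, so the 2 differences come from unlike sets. No difference among genes of like signal was computed. For comparison, 39 of 57 cytosolic ribosomal protein genes were on the list (68.4%). So were 3 of 14 mitochondrial translation factors (21.4%) and 4 of 19 factors for assembly and RNA of the mitochondrial ribosome (21.1%). Of the mitochondrial aminoacyl-tRNA synthetases 5 of 16 were listed (31.25%), and of the genes of mitochondrial transcription 3 of 8 (37.5%). The members' share was thus not particular to them, and the share among other genes of the highest class was not computed.

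The listed members came from both subunits, with 10 of 50 in the large and 6 of 23 in the small. The highest were MRPL3 (11.25 ± 0.05), MRPS16 (10.42 ± 0.03), a small subunit protein with a bacterial counterpart, and MRPL18 (10.31 ± 0.04), the counterpart of the bacterial protein that binds 5S ribosomal RNA. MRPL30, MRPS35, MRPS10 and MRPS7 followed, with means of 9.73, 9.54, 9.52 and 9.45. The lowest was MRPS33 at 8.30 ± 0.12, a mitochondrion-specific small subunit protein. Above it stood MRPS14 at 8.60, the tunnel protein MRPL22 at 8.81, MRPL39 at 8.83, MRPL1 of the mobile L1 stalk at 8.92, MRPL38 at 8.95 and MRPL19 at 9.08. MRPS24 was on the list too, but had no probe set of its own.

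**Figure D2:**
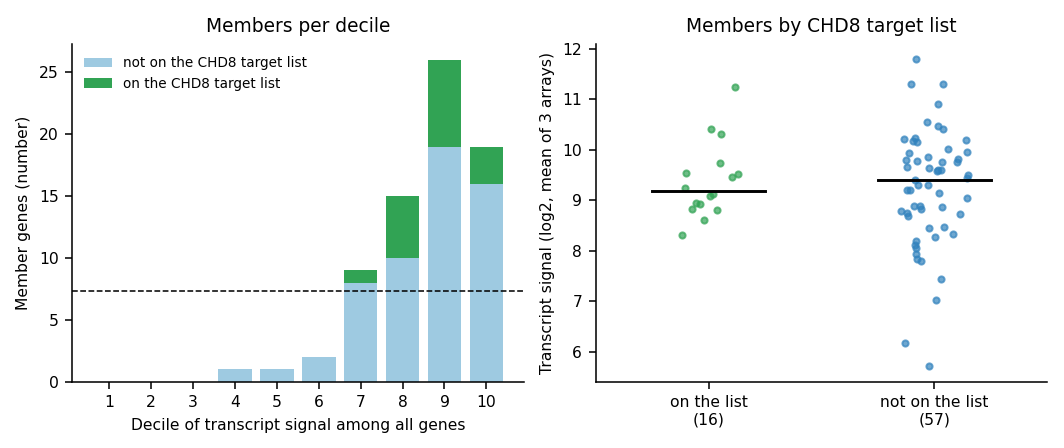
The left panel gives the number of members in each decile of all genes by mean signal (y axis, bars stacked by membership of the CHD8 target list), with a dashed line at the number that an even spread over the deciles would give. The right panel gives the mean signal (log2) of each of the 16 listed and 57 other members as a point and their medians, 9.18 and 9.41, as lines.

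The members varied between the cultures about as much as other genes of like signal. The median SD of a member over the 3 arrays was 0.05 (log2), with a range from 0.01 to 0.16, and 40 of the 73 had an SD under the median SD of all genes in the same decile, close to the even split that a median gives. The highest and lowest array were more than 0.2 apart for 8 members (11.0%, against 38.2% of the other genes). Among genes of the highest class it was 5 of 64 members (7.81%) and 12.3% of the other genes. The SD was largest for MRPS18C (0.16), and next for MRPL11 (0.14), the counterpart of a protein at the base of the bacterial factor-binding stalk. MRPL11 gave 9.78, 9.51 and 9.70. MRPL22, with an SD of 0.13, gave 8.96, 8.72 and 8.76, and MRPL40, with the same SD, lay 0.24 apart between its highest and lowest array. In each of these 4 genes array 1 was the highest. Over all members, 37 had their highest signal on array 1 (50.7%, against 39.2% of the other genes and 36.3% of those in the highest class). On array 2 it was 12 members (16.4%, against 32.6% and 38.4%), and on array 3 it was 24 (32.9%, against 28.3% and 25.3%). The shifts behind these counts were slight, with a median difference of -0.03 for array 2 minus array 1 among the members and -0.01 among all genes. Among the other genes of the highest class it had the other sign, at 0.006. Pearson's r between arrays was 0.995 to 0.998 across the members and 0.993 to 0.994 across all probe sets, where genes are not independent replicates.

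**Figure D3:**
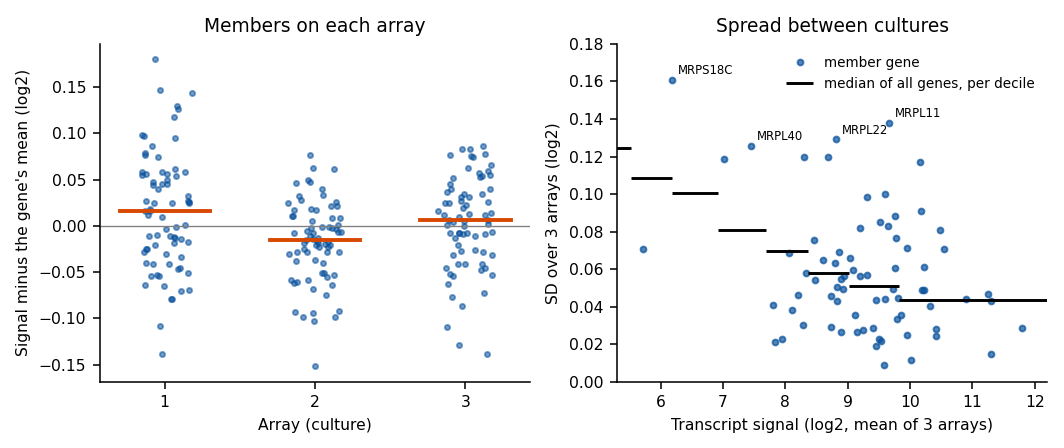
The left panel gives the signal of each member on each array minus the mean of that gene over the 3 arrays (log2), with lines at the medians. The right panel gives each member's SD over the 3 arrays against its mean signal, with black bars at the median SD of all genes in each decile, and the 4 labelled genes have the largest SD.

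The members had lower signals than the cytosolic ribosomal proteins. Their median, 9.31, was above that of the other lists of mitochondrial gene expression, except the proteins of the same ribosome under other symbols. The 57 cytosolic ribosomal protein genes had a median of 11.47 and exceeded the members by 2.18, 2.14 and 2.07 on the 3 arrays (mean 2.13 ± 0.05, SD, n = 3). Proteins of the same ribosome under other symbols, DAP3, PTCD3, CHCHD1 and GADD45GIP1, had a median of 9.51, with PTCD3 the highest at 10.79 ± 0.02 and CHCHD1 the lowest at 8.62 ± 0.03. Of the 14 mitochondrial translation factors (median 8.97), 12 stood in the highest class, from SLIRP, which with LRPPRC stabilizes mitochondrial mRNAs, at 12.27 ± 0.03 down to the release factor MTRF1 at 6.71 ± 0.11. The 19 assembly and ribosomal RNA factors had a median of 8.82, with 14 in the highest class, from the helicase DHX30 at 10.22 ± 0.03 down to the methyltransferase METTL15 at 6.84 ± 0.17. The 16 mitochondrial aminoacyl-tRNA synthetases, which charge the tRNAs, had a median of 8.42, from IARS2 at 10.25 ± 0.09 to FARS2 at 7.67 ± 0.08. The 8 genes of mitochondrial transcription had a median of 7.89, from the RNA polymerase POLRMT at 9.94 ± 0.06 to the elongation factor TEFM at 6.83 ± 0.05. The interquartile ranges of these 5 lists all overlapped that of the members. The overlap was narrow for the synthetases and the genes of transcription. Their upper quartiles were 8.87 and 8.88, against a lower quartile of 8.74 for the members.

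**Figure D4:**
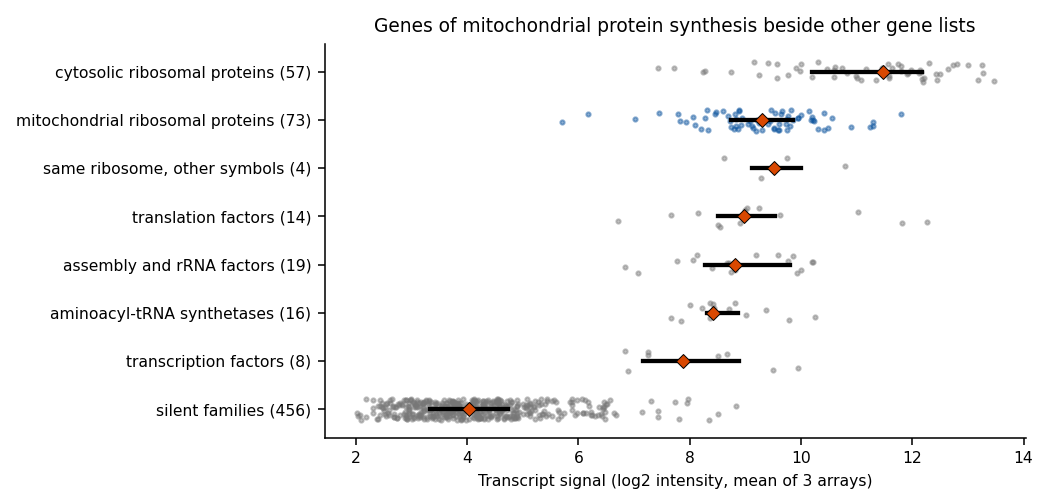
Mean signal over 3 arrays (log2, x axis) of each gene in 8 lists, with the number of genes in brackets, a diamond at the median and a bar from the lower to the upper quartile. The members (blue, median 9.31) lie below the cytosolic ribosomal proteins (11.47) and above the silent families (4.03).

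The cell label was set against marker genes. Of 5 epithelial markers, KRT18 was above the bound from silent families at 7.75 ± 0.11, whereas KRT8, KRT19, EPCAM and CDH1 were at 5.75, 5.92, 4.52 and 4.95. All 5 endothelial markers were below it. The fibroblast markers DCN (3.10), LUM (2.52), PDGFRB (5.55) and COL1A2 (6.33) were below it too, the last just under the bound, while COL1A1 was at 7.24. Of the 4 leukocyte markers measured, PTPRC was high at 8.82 ± 0.11 and CD68 at 6.90 ± 0.06, whereas CD3E (4.59) and CD14 were below the bound. The part of these genes in the members' levels was not tested.

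A promoter sequence from 250 bases before to 50 after the start was at hand for 66 of the 73 members. The ETS motif stood in 28 of them (42.4%), against 14.7% of 13770 measured protein-coding genes, 23.4% of the 5165 in the highest class and 35.4% of the 48 cytosolic ribosomal protein promoters. The YY1 motif stood in 12 (18.2%), against 2.89%, 5.42% and 6.25% in the same order. In all, 36 of the 66 held at least 1 of these motifs and 4 held both. Within this window, 33 of 37 ETS matches and 12 of 13 YY1 matches began at or after -100. At the start or after it began 6 of the ETS and 9 of the YY1 matches. Positions of matches in other genes were not computed.

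The other motifs were rare. The E2F motifs stood in 4 member promoters (6.06%, against 3.88% of all and 5.42% of the highest class). The NRF1 motif stood in 1 (1.52%, against 1.87% and 3.0%) and TATAAA in 2 (3.03%, against 9.11% and 4.84%). With 66 promoters these shares rest on 1 to 4 genes each. A match is a run of letters, not a measured site, and NRF1 and E2F also bind variants that were not searched. The median GC content was 60.2% in the members, 63.0% in all and 65.7% in the highest class. The observed over expected ratio of CpG was 0.879 in the members and 0.779 in all, but 0.878 in the highest class, so here the members were like other genes of high signal.

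The median signal was lower for the members with an ETS motif and higher for those with a YY1 motif, but the groups overlapped widely. The median signal was 9.09 for the 28 members with an ETS motif and 9.50 for the 38 without, a difference of -0.40 ± 0.07 (SD, n = 3 arrays). It was 9.51 for the 12 with a YY1 motif and 9.27 for the 54 without, a difference of 0.36, 0.21 and 0.15 on the 3 arrays (mean 0.24 ± 0.11). These SDs are over arrays that read the same genes and do not measure the spread between genes. Members with an ETS motif ran from 11.25 (MRPL3) to 6.18 (MRPS18C), and those without from 11.79 (MRPS15) to 8.05 (MRPL55). Members with a YY1 motif ran from 10.48 (MRPL42) to 7.84 (MRPL52), within the range of those without. The lowest members with a promoter at hand, MRPS18C, MRPL54, MRPL40 and MRPL33, all held the ETS motif, as did MRPL3 near the top. The ETS motif stood in 7 of 15 promoters of listed members (46.7%) and 21 of 51 of the others (41.2%), the YY1 motif in 3 and 9, and the E2F motifs in 2 (13.3%) and 2 (3.92%).

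Many member genes began close to a gene on the opposite strand. A start of another gene within 1000 bases, pointing away, was found for 17 of the 66 members (25.8%, against 10.6% of all and 15.8% of genes in the highest class), at a median distance of 181 bases. The pair MRPL46 and MRPS11, from the large and the small subunit, started 320 bases apart and gave 9.75 ± 0.06 and 9.20 ± 0.06. MRPS12, in the decoding centre of the small subunit, started 181 bases from SARS2, the mitochondrial seryl-tRNA synthetase, with signals of 8.46 ± 0.08 and 8.35 ± 0.06. MRPL49, a mitochondrion-specific large subunit protein, started 49 bases from FAU, which encodes a cytosolic ribosomal protein, and the signals were 9.77 ± 0.08 and 11.21 ± 0.03.

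In some pairs the signals were far apart. MRPL18 was at 10.31 beside the chaperonin subunit TCP1 at 13.08 ± 0.05, and MRPL37 at 11.30 beside CYB5RL at 7.18 ± 0.06. The low MRPS18C, at 6.18, had beside it the DNA helicase HELQ, also low, at 6.66 ± 0.28. The partner had the higher signal for 8 of the 17 members. The median of the members with such a neighbour exceeded that of the 49 without by 0.28 ± 0.06. This SD is over the arrays and does not measure the spread between genes. The members with a neighbour ran from 11.30 (MRPL37) to 6.18 (MRPS18C). Of the 17 partners, 3 were on the CHD8 target list, namely PPP1R10, PSMA2 and SKA3, against 9.59% of all genes that are not members. They start 597, 202 and 106 bases from MRPS18B, MRPL32 and MRPL57, which are not on the list. Whether CHD8 at these shared stretches also lies at the start of the member cannot be told from the list. Of the listed members 2 of 15 had such a neighbour, against 15 of 51 of the others.

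**Figure D5:**
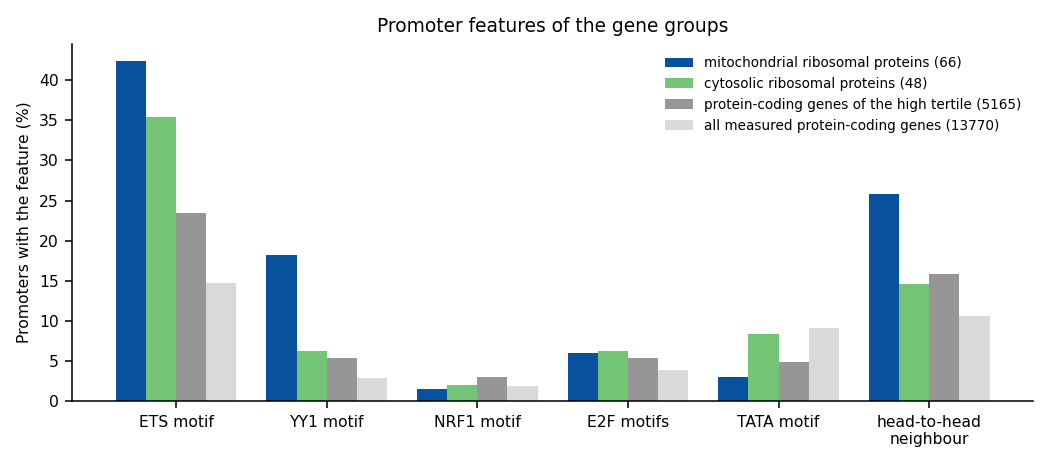
Share of promoters (%, y axis, from 0) that hold each motif, or have the start of another gene on the opposite strand within 1000 bases, for 4 groups of genes with the number of promoters in brackets. The members (dark blue) have the highest share for the ETS motif (42.4%), the YY1 motif (18.2%) and the neighbour (25.8%).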

How the data were processed

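From each of 3 C33A cultures, 100 ng of total RNA was labelled for 1 Affymetrix Gene 1.0 ST array. The deposited table holds log2 signals that the authors normalized by RMA, which corrects background, sets the arrays to the same distribution and summarizes probes. Shifts common to all genes therefore cannot be seen. The version of the software was not given in the sources used here. Of 33297 probe sets, 19460 carried 1 gene symbol in the platform annotation, 1754 several and 12083 none. Probe sets of 1 symbol were averaged per gene, and several-symbol probe sets were left out. Old symbols were updated through RefSeq.

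Genes were ranked by mean signal into deciles and 3 classes. The CHD8 target list of the study (1965 genes) was matched by accession (1907), symbol (40) or synonym (11), 7 were not matched, and 1773 genes were measured. Subunit, counterpart and pathway lists came from general knowledge, and MRPL58 was placed in its class after the values were at hand. The members and lists were chosen with earlier results of these data known. Named were the 6 highest and 6 lowest members, the 4 of largest SD, the 7 highest and 7 lowest on the target list, the extremes of each class and list, the S18 paralogues, members under the bound and members with probe sets over 1 log2 apart. Other genes, such as head-to-head neighbours, were named after their values were seen. Promoter sequences and starts were those of RefSeq on GRCh38.p14. The number of arrays limits the precision. Alternatives were leaving out each array, other uses of probe sets, another normalization or centring, and other lists and bounds. Scripts ran under Python 3.11.15, NumPy 2.4.6, pandas 2.3.3 and matplotlib 3.10.9. On simulated data, only the difference of medians and the sizes of the deciles were tested.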

Additional observations from a re-analysis of the deposited data

How the results depend on the processing

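Of 74 alternatives, 64 stayed within the spread of the arrays or within 1.5 times a count, 8 moved further and 2 turned a sign. For the median SD the yardstick was instead the SD of its values with 1 array left out. Some of the 64 could not move, so their number does not measure robustness. Centring the arrays cannot change a difference of medians within an array, and ranking only protein-coding genes cannot change the members' medians. The counts of members in the highest decile, in the highest class and above the bound stayed within 1.5 times throughout, and 67 members were above a bound at the 99th percentile. The counts in the highest class and above the bound, 64 and 71 of 73, had no room to rise by 1.5 times. The large minus small subunit difference (0.05) ranged from -0.0124 (without replicate 1) to 0.0861 when 1 array was left out, was -0.0181 with subunits read from the letter of the symbol and 0.23 when several-symbol probe sets were also used. The median member level (9.35) was 9.26 over genes with 1 probe set and 9.29 with several-symbol probe sets, and 9.32 to 9.36 with 1 array left out. The difference between listed and other members (-0.23) was -0.14 over genes with 1 probe set, and -0.25 to -0.21 with 1 array left out. The difference between members with a bacterial counterpart and mitochondrion-specific members (0.52) was 0.44 over genes with 1 probe set, 0.42 with several-symbol probe sets, and 0.48 to 0.57 with 1 array left out. The median SD (0.0497) was 0.0395 to 0.0546 with 1 array left out, an alternative chosen after seeing the data. These alternatives changed which genes or arrays were used, and no further cause was tested. No paired analysis was possible because the arrays form 1 group. With 3 arrays and no detection call, low signals such as that of MRPL13 cannot be told from background.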

Other observations

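The 4 member genes without a probe set of their own were read only together with another gene. The probe set for MRPL51 and SPTLC1 gave 11.42, 11.49 and 11.42 on the 3 arrays, a mean of 11.45 ± 0.04 (log2, SD, n = 3). Those for MRPS6 and SLC5A3, for MRPS24 and its readthrough transcript, and for MRPS28 and TPD52 had means of 9.16 ± 0.09, 9.05 ± 0.02 and 8.73 ± 0.07. Which gene of a pair gave the signal cannot be told apart. MRPS31P5, a pseudogene of the small subunit protein MRPS31, was not among the members and gave 5.63 ± 0.13, whereas MRPS31 gave 8.11 ± 0.04.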
